A study of Mus musculus with 6 samples.

Results

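Complex I (NADH:ubiquinone oxidoreductase) takes electrons from NADH, passes them to ubiquinone and pumps protons across the inner mitochondrial membrane. Core subunits carry the catalysis, accessory subunits surround them, and assembly factors build the enzyme without remaining in it. Haematopoietic stem cells (HSCs) are known for relying little on respiration, and oxidative phosphorylation becomes more prominent as they differentiate. Autophagy, for which Atg5 is required, removes mitochondria.

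The complex I genes were all those whose symbol on the array begins with *Nduf*, 45 of 37074 gene names, with 70 of 56605 probes. They comprise 38 genes named as subunits (*Ndufa*, *Ndufb*, *Ndufc*, *Ndufs*, *Ndufv* and *Ndufab1*) and 7 named as assembly factors (*Ndufaf*). They were measured in LSK cells, a sorted bone marrow fraction (lineage-, c-Kit+ and Sca-1+) containing HSCs and early progenitors, from C57BL/6 mice at P6–P8, with 3 arrays per group. Control mice were *Atg5*w/w;*Vav*iCre+ and the others *Atg5*f/f;*Vav*iCre+, so that Cre, driven in haematopoietic cells, was present in both groups. Whether each sample was 1 mouse or a pool is not given in the sources used here, so p-values measure only the spread between these arrays. The 6 arrays shared 1 slide, and row 1 of it held the control arrays and row 2 the others. Genotype and slide row therefore cannot be told apart. The *Atg5* probe was higher by 0.54 on the log2 scale in the group that by its label lacks this gene (adjusted p = 0.0209 from limma). Whether it lies in the deleted part was not determined, and every direction given here rests on the labels of the arrays.

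The second group is called the *Atg5*f/f;*Vav*-labelled arrays, or the labelled arrays. Values are log2 signals relative to the 75th percentile of each array, and a difference is the mean of the *Atg5*f/f;*Vav*-labelled arrays minus the mean of the control arrays. Probes were tested if 3 or more of the 6 arrays had them well above background, and a call is an adjusted p below 0.05 over all 32074 probes tested with limma. A gene is represented by its tested probe with the highest mean signal. By this rule 44 genes, with 65 probes, were tested. The exception was *Ndufa4l2*, a paralogue of *Ndufa4* induced in hypoxia, whose 2 probes were not well above background on any array. In cell populations such as these, fewer cells of a type and less RNA per cell cannot be told apart.

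The promoters of these genes are shown first. RefSeq (GRCm38.p6) gave a window from 250 bases before to 50 bases after the start for 39 of the 45 genes. NRF1, a factor known to act on nuclear genes of the respiratory chain, is associated with the letters GCGCANGCG. They occurred, on either strand, in 10 of 39 windows (25.6%) against 6.47% of the windows of 27025 genes. The matches lay in 8 of 33 subunit genes and 2 of 6 assembly factor genes. The stretch of 120 bases directly before the start is given for 5 genes with a match and for *Ndufb11*, the gene with the smallest difference between the groups. Capitals mark every match to a searched motif, which for *Ndufb4* includes TNAAGGTCA, associated with ERRA, and for *Ndufa8* the reverse complement of GGGGCGGGG, associated with SP1.
Ndufb4 (chr16:37654369-37654488, minus strand): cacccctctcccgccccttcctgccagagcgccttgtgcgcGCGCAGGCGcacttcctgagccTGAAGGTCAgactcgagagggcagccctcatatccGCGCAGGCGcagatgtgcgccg
Ndufa8 (chr2:36049339-36049458, minus strand): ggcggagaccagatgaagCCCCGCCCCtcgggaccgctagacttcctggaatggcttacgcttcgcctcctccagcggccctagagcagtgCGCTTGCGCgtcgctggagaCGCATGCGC
Ndufs6 (chr13:73328483-73328602, minus strand): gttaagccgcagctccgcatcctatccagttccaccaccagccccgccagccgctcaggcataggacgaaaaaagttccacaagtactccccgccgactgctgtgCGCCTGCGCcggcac
Ndufa11 (chr17:56717642-56717761, plus strand): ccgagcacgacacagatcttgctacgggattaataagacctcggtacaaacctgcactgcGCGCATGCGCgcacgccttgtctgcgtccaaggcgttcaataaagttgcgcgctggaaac
Ndufaf4 (chr4:24897963-24898082, plus strand): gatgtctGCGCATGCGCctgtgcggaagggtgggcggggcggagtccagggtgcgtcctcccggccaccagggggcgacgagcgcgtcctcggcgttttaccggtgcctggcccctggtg
Ndufb11 (chrX:20617620-20617739, minus strand): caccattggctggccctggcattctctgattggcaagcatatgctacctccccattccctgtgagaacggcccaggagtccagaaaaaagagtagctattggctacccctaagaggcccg
In *Ndufa11* and *Ndufaf4* the letters read the same way on both strands, so that a match on each strand overlaps the other.

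The letters AANATGGCG, associated with YY1, occurred in 6 of 39 windows (15.4%) against 2.51% of all genes. All 6 were subunit genes. In 5 of them the match lay after the start, with its first base between base 23 and base 36 on the strand of the gene. The letters are given in capitals with up to 8 bases on each side.
Ndufc1 (chr3:51408917-51408941, minus strand): tgcggaacAAGATGGCGccgtccgt
Ndufs7 (chr10:80249465-80249489, plus strand): ccgaggccAAGATGGCGgcgctggc
Ndufa9 (chr6:126849099-126849123, minus strand): tgtgggagAAGATGGCGgccgccgt
Ndufs6 (chr13:73328433-73328457, minus strand): tcaccggcAAGATGGCGgcggtgct
Ndufs4 (chr13:114388045-114388067, minus strand): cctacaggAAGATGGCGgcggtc
*Ndufb11* held the other match, 211 bases before its start. The other motifs searched were TGACNNNGC, associated with the antioxidant response element, in 23.1% of the windows against 12.5% of all genes, CCGGAAG, associated with GABP, in 12.8% against 9.12%, and TGACGTCA, associated with CREB, in 7.69% against 1.88%. GGGGCGGGG occurred in 15.4% against 11.6%, and TNAAGGTCA in 2.56% against 1.26%. A match to letters is a description of the sequence and does not show that a factor binds there. The median difference in expression between the groups was 0.56 for the 10 genes with the NRF1 letters and 0.56 for the 29 matched genes without them.

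Most complex I genes, among core subunits, accessory subunits and assembly factors alike, were higher in the *Atg5*f/f;*Vav*-labelled arrays at the scaling used here. Of the 44 genes tested, 40 were called higher and 0 lower, where 34.4% of all probes tested were called in either direction, 17.3% higher and 17.1% lower. The other 4 had differences of 0.10 to 0.30, which quantile normalisation moved to between −0.25 and −0.00041. Among 13797 protein-coding genes, each represented in the same way, 22.5% were called higher and 12.7% lower. The median difference was 0.56 for the complex I genes (1.47-fold) and 0.05 for the protein-coding genes, whose quartiles were −0.31 and 0.39. For 43 of the 44 genes every labelled array was above every control array, against 35.2% of protein-coding genes. Standard errors lay between 0.10 and 0.18.

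**Figure D1:**
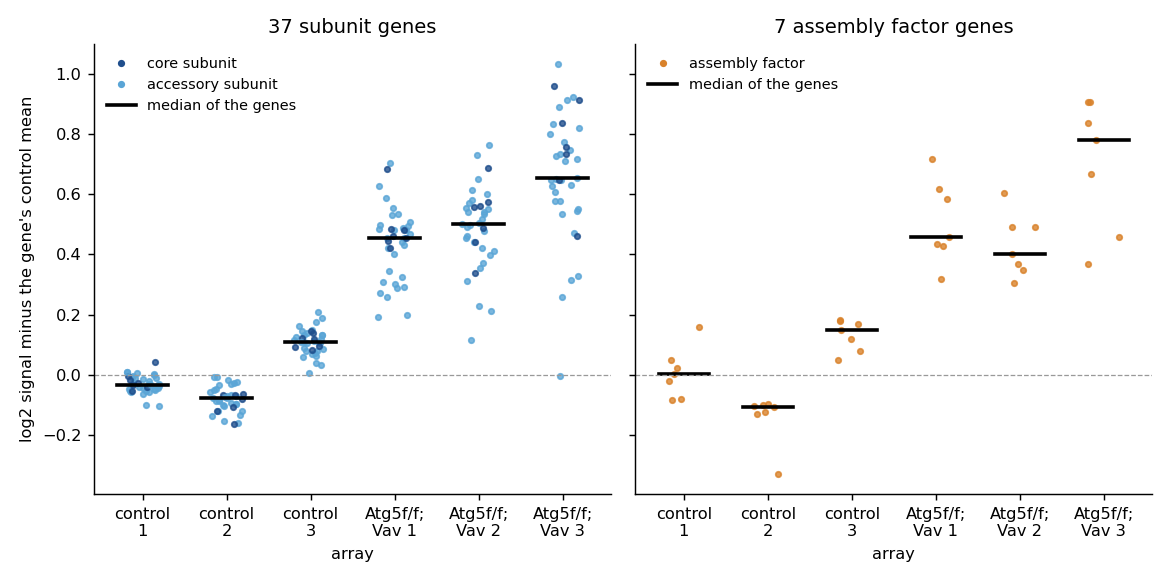
Log2 signal of each gene minus the mean of its control arrays (y axis) on each of the 6 arrays (x axis), for 37 subunit genes on the left and 7 assembly factor genes on the right. Each point is a gene and each black bar the median of the genes, which lies between −0.10 and 0.15 on the control arrays and between 0.40 and 0.78 on the Atg5f/f;Vav-labelled arrays.

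The arrays of a group differed from each other in the same way for most of the genes. The median deviation of the subunits from their control means was −0.03, −0.08 and 0.11 in control and 0.45, 0.50 and 0.66 in the labelled arrays. For the assembly factors it was 0.00, −0.10 and 0.15 in control and 0.46, 0.40 and 0.78 in the labelled arrays. *Atg5*f/f;*Vav* replicate 3 was the highest of all arrays for 43 of the 44 genes, and control replicate 2 was the lowest for 38. The calls depended on which control array was left out. Without control replicate 1 or without control replicate 2, limma called 0 of the 44 genes, when 0.703% and 0.544% of protein-coding genes were still called higher. An unadjusted p below 0.05 was reached by 40 genes without the first and by 38 without the second, and the median over the subunits was 0.54 and 0.52. Without control replicate 3, 32 genes were called, and over that array and each *Atg5*f/f;*Vav* array left out in turn the count was 27 to 35, when 15.0%, 18.1%, 18.6% and 19.7% of protein-coding genes were called higher.

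The nuclear genome encodes 7 core subunits, and all 7 were called higher, with a median difference of 0.60. *Ndufv1* binds NADH and the flavin at the tip of the peripheral arm. Control arrays read 4.32, 4.11 and 4.40 and the labelled arrays 4.96, 4.96 and 5.23. The groups were clearly apart, with a difference of 0.78, the largest among the core subunits (standard error (SE) 0.13, adjusted p = 0.0154 from limma). *Ndufv2*, its iron-sulfur partner, stood at 4.04, 3.96 and 4.13 and at 4.52, 4.60 and 4.80, a difference of 0.60. *Ndufs1*, which carries several iron-sulfur clusters of the same module, stood at 3.13, 3.12 and 3.31 and at 3.64, 3.62 and 4.10. Its difference was also 0.60, with the highest value on *Atg5*f/f;*Vav* replicate 3.

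Further core subunits belong to the module that hands the electrons to ubiquinone. *Ndufs7* and *Ndufs8*, which hold the last iron-sulfur clusters of the chain, were higher by 0.62 and 0.60. *Ndufs3* was higher by 0.52.

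Among the accessory subunits, 26 of 30 were called higher and the median difference was 0.55. By name, 10 of 13 *Ndufa* genes (*Ndufab1* not included), 9 of 10 *Ndufb*, 2 of 2 *Ndufc*, 3 of 3 *Ndufs* genes, *Ndufab1* and *Ndufv3* were called. *Ndufb6*, a subunit of the membrane arm, had the largest difference of all complex I genes. Control arrays read 2.69, 2.58 and 2.95 and the labelled arrays 3.45, 3.47 and 3.77, 0.82 higher on average (SE 0.15, adjusted p = 0.0162 from limma). *Ndufs6*, a zinc-binding subunit near the junction with the NADH-oxidising module, stood at 5.19, 5.20 and 5.48 and at 5.82, 6.05 and 6.20. Every labelled array was above every control array by at least the spread within the control group, and the difference was 0.74. *Ndufa10* and *Ndufa11*, both of the membrane arm, followed with 0.67 each. *Ndufab1*, the mitochondrial acyl carrier protein that also serves fatty acid synthesis and iron-sulfur cluster assembly, was higher by 0.66. *Ndufv3* was higher by 0.43.

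The other accessory subunits that were called lay between these genes and 0.37. *Ndufa12*, which takes its place late in assembly, and *Ndufa5*, on the peripheral arm, were each higher by 0.64, *Ndufa1* and *Ndufb9* by 0.62. *Ndufa9*, which lies near the ubiquinone site, was higher by 0.58, and *Ndufs4*, whose loss is known to cause Leigh syndrome, by 0.47. In the membrane arm, *Ndufb5* and *Ndufb7* were higher by 0.57, *Ndufc2* by 0.56, *Ndufb8* by 0.55, *Ndufb4* by 0.54, *Ndufc1* by 0.53, *Ndufb2* by 0.50, *Ndufb10* by 0.47 and *Ndufb3* by 0.44. *Ndufs5* and *Ndufa8*, on the side of the intermembrane space, were higher by 0.57 and 0.50. *Ndufa7*, *Ndufa2* and *Ndufa3* were higher by 0.43, 0.42 and 0.37, and *Ndufa3* was the smallest difference called among the subunits. On its control arrays it read 5.13, 5.10 and 5.13, the narrowest control group of the 44 genes, and the labelled arrays read 5.39, 5.49 and 5.59.

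**Figure D2:**
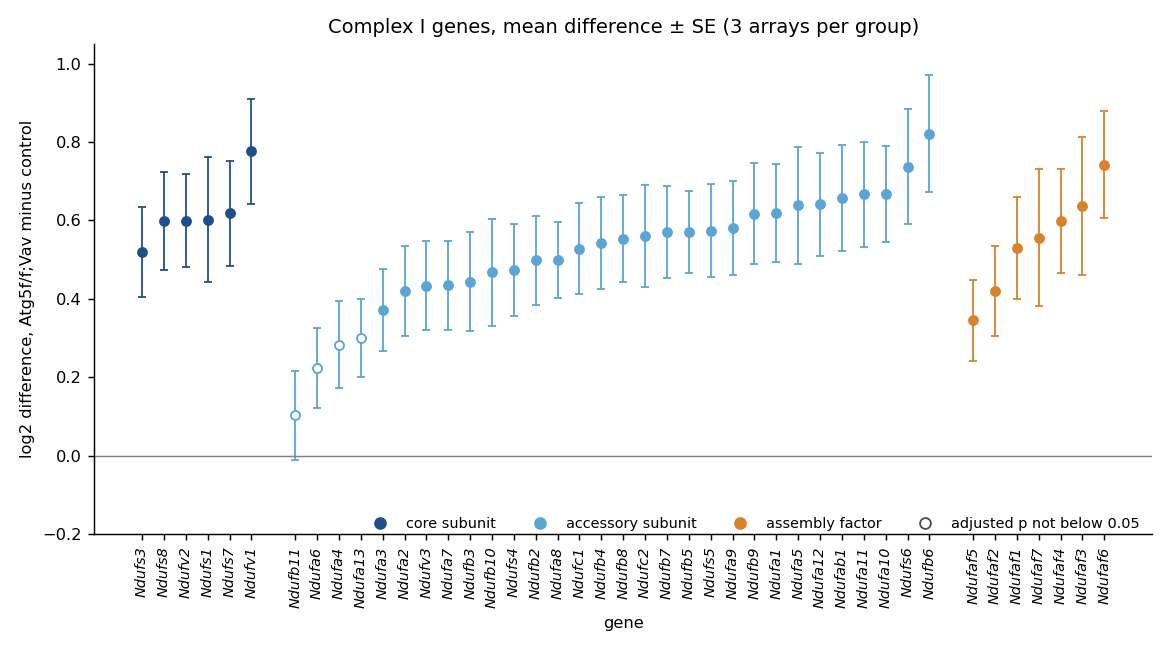
Difference in log2 signal between the groups for 43 of the 44 genes (y axis, mean of 3 Atg5f/f;Vav arrays minus mean of 3 control arrays, bars are standard errors from limma), ordered by size within core subunits, accessory subunits and assembly factors (x axis). Open circles mark the 4 genes that were not called, at 0.10 to 0.30, and every point lies above 0 at this scaling.

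The 4 genes that were not called were all accessory subunits by name. *Ndufb11*, an X-linked subunit of the membrane arm, was the only gene of the 44 whose groups overlapped. Control arrays read 5.34, 5.27 and 5.46 and the labelled arrays 5.55, 5.47 and 5.35, which differed by 0.10 (SE 0.11, adjusted p = 0.501 from limma). *Atg5*f/f;*Vav* replicate 3, the highest array for the other complex I genes, was the lowest of its group for *Ndufb11*. *Ndufa1*, the other X-linked gene, was called, with a difference of 0.62.

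*Ndufa6*, which anchors an acyl carrier protein to the peripheral arm, stood at 5.28, 5.21 and 5.37 in control and 5.49, 5.50 and 5.54 in the labelled arrays. The groups did not overlap, but the difference of 0.22 did not pass (adjusted p = 0.126 from limma). *Ndufa4*, now regarded as a subunit of cytochrome c oxidase despite its name, differed by 0.28 (adjusted p = 0.0870 from limma). *Ndufa13*, also known as GRIM-19, stood at 5.98, 6.00 and 6.09 and at 6.28, 6.33 and 6.35, a difference of 0.30 (adjusted p = 0.0561 from limma).

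All 7 assembly factors were called higher. Their median difference was 0.56, against 0.56 for the 37 subunits tested. The subunit median minus the assembly factor median was 0.0036, and the deviations of the medians on the 3 labelled arrays differed by −0.0021, 0.10 and −0.12. *Ndufaf6* had the largest difference of the family. Control arrays read 0.35, 0.33 and 0.61 and the labelled arrays 1.15, 1.03 and 1.34, which differed by 0.74 (SE 0.14, adjusted p = 0.0163 from limma). *Ndufaf3* and *Ndufaf4* work as a pair in building the ubiquinone module. *Ndufaf3* stood at −0.27, −0.76 and −0.26 and at 0.15, 0.06 and 0.40, with control replicate 2 well below the other control arrays, a difference of 0.64. *Ndufaf4* stood at 0.74, 0.59 and 0.74 and at 1.31, 1.09 and 1.47, a difference of 0.60.

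*Ndufaf7*, a methyltransferase of the mitochondrial matrix, was higher by 0.56. *Ndufaf1*, a member of the complex that assembles the membrane arm, was higher by 0.53, and *Ndufaf2*, which acts late in assembly, by 0.42. *Ndufaf5*, the hydroxylase of *Ndufs7*, had the smallest difference of the assembly factors. Control arrays read 0.27, 0.14 and 0.33 and the labelled arrays 0.56, 0.60 and 0.61, which differed by 0.34 (SE 0.10, adjusted p = 0.0428 from limma).

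The difference between the groups depended on signal level over the whole array, and subunits and assembly factors lay at different levels. The probes of the subunits had mean log2 signals of 2.27 to 6.17, and those of the assembly factors −0.11 to 1.93. For protein-coding genes the median difference was −0.07 at signals between −2 and 0, 0.15 between 1 and 2, 0.30 between 3 and 4 and 0.43 between 5 and 6. The share called higher was 14.5%, 26.5%, 41.5% and 57.0% at these levels. Among the 3232 other protein-coding genes within the range of the subunits, 41.6% were called higher and the median difference was 0.29. Among the 3896 within the range of the assembly factors these values were 23.5% and 0.10.

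Set beside the other protein-coding genes within 0.5 of its own log2 signal, 39 of the 44 complex I genes lay above the median of those genes. The median distance above it was 0.37 for the assembly factors, with all 7 above it, by 0.24 to 0.65. For the subunits it was 0.17, with 32 of 37 above it, and for the core subunits 0.23, with 7 of 7. The 5 genes below it were *Ndufb11*, *Ndufa6*, *Ndufa4*, *Ndufa3* and *Ndufa13*. Quantile normalisation, which gives every array the same distribution of signals, left 11 genes called. These were 6 of 37 subunits, near the 15.5% of protein-coding genes called higher, and 5 of 7 assembly factors. The median was then 0.20 for the subunits and 0.38 for the assembly factors. With the 75th percentile taken over the probes that every array detected, 27 genes were called, against 13.5% of protein-coding genes called higher, and both medians were 0.35.

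**Figure D3:**
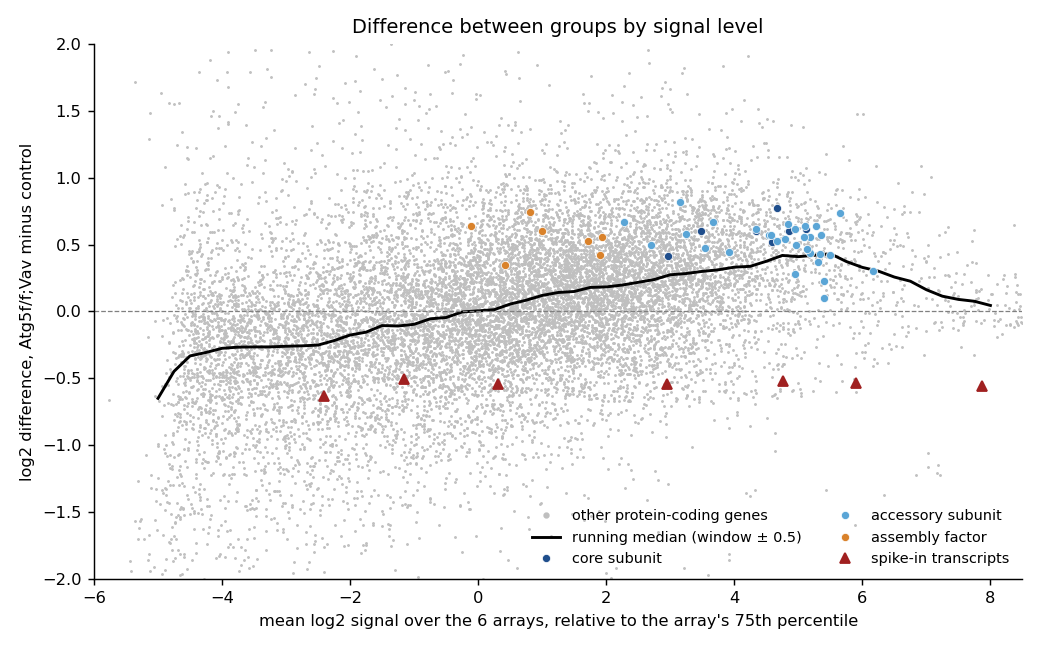
Difference in log2 signal between the groups (y axis) against mean log2 signal relative to the 75th percentile of each array (x axis), for protein-coding genes in grey with their running median in black, complex I genes in colour and spike-in transcripts as triangles. The running median climbs to 0.43 at a signal of 5.5, the assembly factors lie above it at low signal, the subunits lie at high signal and mostly above it, and 212 other genes beyond 2 in either direction are not shown.

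The labelling mix contained 10 spike-in transcripts, of which 7 were well above background on all 6 arrays. At mean signals from −2.41 to 7.86, their differences lay between −0.63 and −0.50, with a median of −0.54. They were thus shifted by a near-constant amount over the range in which the protein-coding genes moved from negative to positive differences. How much spike-in was added per amount of RNA is not given in the sources used here. Centred on the spike-ins, the median difference was 1.10 for the subunits and 1.10 for the assembly factors. This centring adds the same amount to every gene. It therefore raises the median of all protein-coding genes, 0.05 before it, by as much as those of the complex I genes.

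Several probes were tested for 17 of the genes, and they did not always move together. Over all complex I probes, 50 of 65 were called higher and 3 lower. Of the 21 probes that do not represent their gene, 10 were called higher and 3 lower. Of the 21, 10 were designed on curated RefSeq mRNAs, and 9 of these were called higher, with a median difference of 0.64. The other 11 were designed on other transcript records, 1 was called higher and 3 lower, and the median was −0.18. Their mean signals lay between −3.64 and 0.03, and those of the 3 called lower between −3.53 and −2.96. For protein-coding genes the running median of the difference was −0.27 at a signal of −3.5 and −0.18 at −2. The 2 kinds of record were not compared at like signal. Differences of opposite sign were found within *Ndufa13*, *Ndufb2*, *Ndufs1*, *Ndufs3*, *Ndufv2* and *Ndufv3*. The 7 probes whose ends lie further apart on the genome than the length of the probe, as over an exon junction, were all called higher. Among all probes tested 17.3% were called higher. These probes belong to genes already counted as higher, and in *Ndufaf3*, *Ndufaf5* and *Ndufb2* they are the probes that represent the gene.

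**Figure D4:**
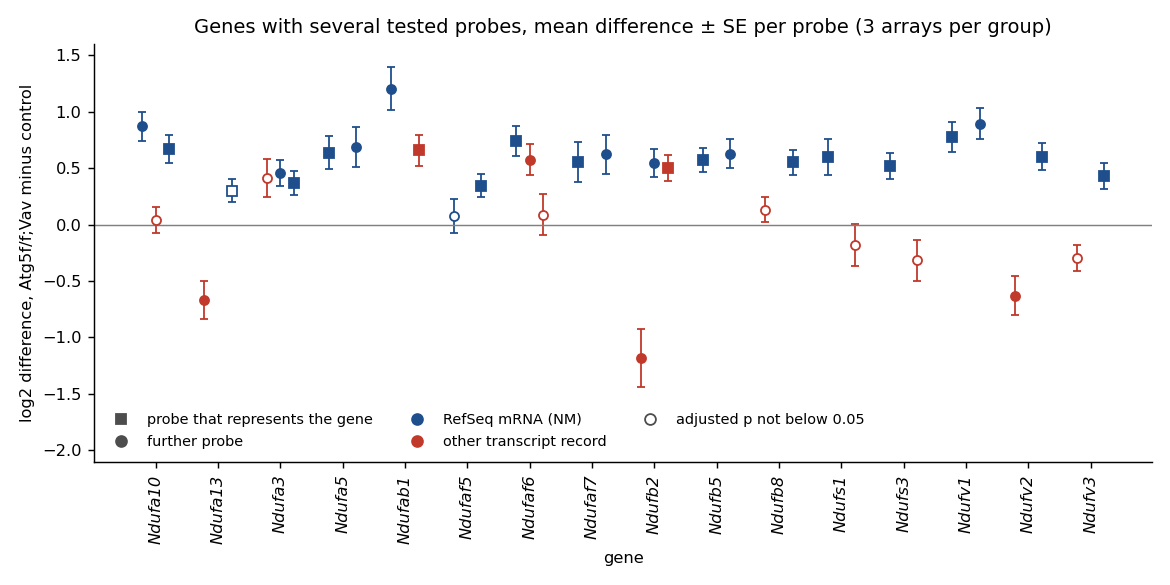
Difference in log2 signal between the groups (y axis, mean of 3 Atg5f/f;Vav arrays minus mean of 3 control arrays, bars are standard errors from limma) for each tested probe of 16 of the 17 genes with several (x axis). Squares represent the gene, blue marks curated RefSeq mRNAs and red other transcript records, and the 3 filled points below 0 are red, in Ndufa13, Ndufb2 and Ndufv2.

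For the 3 genes with a probe called lower, the first 30 bases of that probe and of the probe that represents the gene are given in the 5′ to 3′ direction, with coordinates of the whole probe in mm9, since the 2 probes of a gene read different stretches. Here no capitals are used because no base is singled out.
Ndufb2, representing probe (chr6:39548336-39549425): ctgacactgtaaactctctggacgagagca
Ndufb2, probe called lower (chr6:39552854-39552913): ggacaaaagtctgttactatagaaaggctg
Ndufv2, representing probe (chr17:66428794-66428853): gtgtgcaagcaggcctttaacttgtattca
Ndufv2, probe called lower (chr17:66442062-66442121): gtggttcacagaattaagaaatggtaggat
Ndufa13, representing probe (chr8:72418102-72418161): gagatgagcaatgccaacttcggcttcacc
Ndufa13, probe called lower (chr8:72411694-72411753): caaaatatactggcaccgactgcgtggcct
The starts of the 2 probes lay 4518 bases apart in *Ndufb2*, 13268 in *Ndufv2* and 6408 in *Ndufa13*. The differences were 0.50 and −1.18 in *Ndufb2*, 0.60 and −0.63 in *Ndufv2*, and 0.30 and −0.67 in *Ndufa13*. What the deviating probes measure was not tested. With the mean over all tested probes of a gene, 34 of the 44 genes were called and the medians were 0.53 for the subunits and 0.53 for the assembly factors.

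Complex I also needs the core subunits that the mitochondrial genome encodes and assembly factors with other names. Of 18 such genes tested, 9 were called higher and 0 lower, with a median of 0.38. The share of protein-coding genes called higher was 22.5% in all, and 14.5% to 57.0% over signals from −2 to 6, where the probes of these genes lie. Among the 7 mitochondrial subunits, *mt-Nd1* was called, at 2.98, 2.94 and 3.20 in control and 3.84, 3.76 and 4.23 in the labelled arrays, a difference of 0.90. *mt-Nd2* and *mt-Nd3* were called with 0.63 and 0.69. *mt-Nd4*, *mt-Nd4l* and *mt-Nd5* did not pass, with 0.34, 0.31 and 0.24. *mt-Nd6*, the only one of them encoded on the light strand, differed by −0.33 and did not pass either (adjusted p = 0.116 from limma). The median over the 7 was 0.34. Apart from *mt-Nd6*, their probes had mean signals of 3.49 to 5.94. Between signals of 3 and 6, 41.5% to 57.0% of protein-coding genes were called higher, with median differences of 0.30 to 0.43.

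Of the 10 further assembly factors tested, 5 were called higher, which is to be read against the same shares, and *Coa1* matched no probe name. *Ecsit*, a partner of *Ndufaf1* in assembling the membrane arm, stood at 2.79, 2.72 and 3.05 in control and 3.66, 3.63 and 3.74 in the labelled arrays, a difference of 0.83. *Foxred1* was higher by 0.54, *Dmac1* by 0.52, *Tmem70* by 0.43 and *Tmem126a* by 0.42. *Tmem126b* and *Timmdc1* differed by 0.12 and 0.07 and did not pass. *Ndufaf8*, the partner of *Ndufaf5*, is named 1810043H04Rik on the array and so was not among the 45 genes. It was higher by 0.47.

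Markers of cell state moved with the groups as well. All 7 proliferation genes were called higher, and their summed signal on the linear scale was 78.7 to 102 on the control arrays and 128 to 174 on the others. Of 8 stem cell markers 5 were called lower, with sums of 40.4 to 42.6 and 12.3 to 25.6. *Kit* and *Ly6a*, which encode the markers of the sort, were detected on every array, with differences of −0.38 (adjusted p = 0.0563 from limma) and 1.57 (adjusted p = 0.00623 from limma). Of the other 3 genes of that list, *Ptprc* was called lower, with −0.34 (adjusted p = 0.04997 from limma), and *Flt3* and *Cd34* differed by −0.87 and −0.27 and did not pass. The list summed to 132 to 141 on the control arrays and 88.1 to 143 on the labelled arrays. Among 9 erythroid markers 3 were called higher and 5 lower, with sums of 353 to 725 and 146 to 185. The sums mostly reflect the bright globin probes. *Hba-a1* differed by −2.26 and *Hbb-bt* by −1.22, while *Car1*, *Klf1* and *Epor*, expressed early in the lineage, were the genes called higher, by 3.80, 2.95 and 2.08. Of 8 neutrophil markers 2 were called higher and 5 lower, with sums of 175 to 277 and 216 to 270. The stromal genes summed to 3.10 to 31.2 on the control arrays and 1.22 to 1.81 on the others. Of 5 tested, 3 were called lower, and *Col3a1* and *Cdh5* were not well above background on any array. *Col1a1*, 1 of those called, was well above background on control arrays only and so was tested only through that group. The control arrays differed among themselves, with −4.14, 3.23 and 2.95 for *Col1a1* and −0.90, 3.47 and 2.90 for *Col1a2*. Sums for macrophage, B cell, T and NK cell and megakaryocyte markers lay between 4.72 and 11.7 on all arrays, and *Cd3g* and *Ncr1* were not well above background on any. Of 5 megakaryocyte markers 1 was called higher and 2 lower, with sums of 7.53 to 9.02 and 6.39 to 6.79. Of 5 B cell markers 1 was called higher, *Cd79a*, which was well above background on 1 control array. The macrophage and T and NK cell lists had 0 calls. The part of these markers in the differences of the complex I genes was not tested.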

How the data were processed

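RNA of sorted LSK cells was hybridised to 1-colour Agilent arrays of 60-mer probes (coordinates in mm9), 1 array per sample. The authors deposited, per the file headers, the scanner's intensity of each spot, background-corrected by Feature Extraction 12.0.3.1. They also deposited a table of normalised signal, which is the intensity divided by a constant for each array (checked within 0.000267%) and was used as an alternative. The log2 intensity minus the 75th percentile of the array over 59305 non-control spots was analysed. No spot was saturated, and the 64 to 81 spots per array that the scanner software flagged as outliers were dropped. Spots of a probe were averaged. Probes were tested with limma 3.58.1 (2-sided, eBayes, in R 4.3.3), and p-values were adjusted by Benjamini-Hochberg. The 75th percentile of intensity was 620.3 to 881.4, and 53.6% to 59.9% of spots were well above background. The number of arrays limits the precision. The steps were tested on simulated data. With 1 slide and 1 scan for all arrays, neither could be fitted as a block. The alternatives are those named in the closing section.

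The genes, motifs, marker lists and tests were chosen with earlier results of these data known, and the other complex I genes are textbook members. Genes named with values are core subunits (1 gene is not reported here by name, but is part of the counts and medians), the assembly factors, the 4 accessory subunits at each end of the ranking and genes whose probes disagree. Others were chosen after their values were seen. Comparisons by like signal and the centring on spike-ins were added after the data were examined.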

Additional observations from a re-analysis of the deposited data

How the results depend on the processing

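Against 40 complex I genes called, 41 were called with normexp background correction (offset 50), with the deposited values and with a filter on all 6 arrays, 42 with an intensity trend, 40 with outlier-flagged spots kept and 34 with the mean of all probes. With quantile normalisation 11 complex I genes (6 of 37 subunits and 5 of 7 assembly factors) and 5 other complex I genes were called. The medians were then 0.20 for subunits and 0.38 for assembly factors, a difference of −0.18. With the 75th percentile taken over the probes that every array detected, 27 complex I genes and 5 others were called, and the medians were 0.35 and 0.35, while that of protein-coding genes moved from 0.05 to −0.16. Without a filter on dim probes 18 complex I genes, 2 others and 4538 of all probes were called, against 11024 with it. The methods' t-test with Benjamini-Hochberg adjustment called 0 complex I genes, 0 others and 0 probes in all, and at an unadjusted p below 0.05 it called 43, 9 and 13541. Leaving out each array in turn gave 0 to 35 complex I genes, 0 to 7 others and 251 to 10304 probes, with 0 without control replicate 1 or 2 (330 and 251 probes). The subunit median then lay between 0.50 and 0.61, that of the assembly factors between 0.46 and 0.68, and the subunit median minus the assembly factor median between −0.11 and 0.038. Above genes of like signal, the medians were 0.17 and 0.37, a difference of −0.20. Centred on the spike-ins, which adds the same amount to every gene, the medians were 1.10 and 1.10.

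The replicate number as a block gave 38 complex I genes, 7 others and 10173 probes called. The numbers did not pair the samples, since the correlations between arrays of the same number were −0.07, 0.19 and 0.11. Under quantile normalisation the differences of *Ndufa13* (−0.00041), *Ndufa4* (−0.072), *Ndufa6* (−0.14) and *Ndufb11* (−0.25) turned negative. So did that of *Ndufa3* (−0.012), which was called higher at the main scaling. With the percentile over detected probes the difference of *Ndufb11* was −0.10. None of these negative differences passed the threshold. The causes of these changes were not tested. Over the 26 genes selected by the rules for naming given above and all alternatives, 288 values kept direction and call, 118 lost the call, 5 gained it and 5 changed sign. The other genes named, *Ndufa3* among them, are not in this count.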

Other observations

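The probe named for *mt-Nd3* is placed on chromosome 1 in the scanner files, although the gene lies in the mitochondrial genome, so its difference of 0.69 may include signal of a nuclear copy. This was not tested. The brightest *Acad9* probe differed by −0.29 (adjusted p = 0.195 from limma), whereas 2 dimmer probes of the gene were called higher, with 0.41 and 0.57. For *Nubpl*, which delivers iron-sulfur clusters to complex I, the brightest probe differed by 0.34 (adjusted p = 0.142 from limma) and a dimmer one was called lower, with −0.86 (adjusted p = 0.0173 from limma).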
